A study of Bos taurus with 9 samples.

Results

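The genes described here were lowest on day 3 of the chemical conversion of bovine fibroblasts and higher again on day 6. They were chosen by 3 conditions on CPM, the estimated count of a gene as a share of all counts of its sample, in parts per 1000000: a mean of at least 2 CPM in both BEFs and CiADCs-6d, a CiADCs-3d mean of at most 0.6 times each of these means, and a highest CiADCs-3d sample below the lowest sample of both other groups. Of 21512 genes in the table, 11003 had at least 2 CPM in both BEFs and CiADCs-6d, and 88 met all 3 conditions, or 0.8% of these 11003. The dip itself is what the genes were selected on, so values on day 3 against either other day are given as a description, without a test. The opposite shape, with at least 2 CPM on day 3, both other means at most 0.6 times the CiADCs-3d mean and every day 3 sample above every other, was met by 180 genes. The dipping genes were a small part of the genes that were low on day 3. Among genes with at least 2 CPM in BEFs, 1882 had a CiADCs-3d mean of at most 0.6 times the BEFs mean with no overlap of samples, and 1552 of them were also this low in CiADCs-6d. The 88 genes were 4.68% of the 1882.

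Gene expression was measured by RNA sequencing in 9 samples of wild-type (WT) Bos taurus cells, 3 per group. BEFs (AnEFs-0d, cell line label BearF cell) are fibroblasts grown from the margin of the ear and kept in DMEM with fetal bovine serum. CiADCs-3d and CiADCs-6d (label CiAD cell) are cells from such fibroblasts after 3 and 6 days in N2B27 medium with VPA at 500 µg/mL, TTNPB at 1 µM and RepSox at 10 µM. All 9 samples, BEFs included, carry the treatment label reprogramming. VPA, valproic acid, inhibits histone deacetylases, TTNPB activates retinoic acid receptors, and RepSox inhibits the type I receptor kinase for TGF-beta. Cells kept as long without compounds were not among the samples, so effects of the compounds, the medium and the time in culture cannot be told apart. The samples of a group are biological repetitions by the paper's text, which leaves unsaid if these were different animals or different inductions, so p-values measure the spread between these samples, which may be technical.

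The samples held between 18509244 and 24071580 counts. The cell labels were checked against marker genes. COL1A1, the main chain of fibroblast collagen, lay between 20700 and 22600 CPM in BEFs, between 4440 and 7390 CPM in CiADCs-3d and between 2600 and 2920 CPM in CiADCs-6d. Of the adipocyte markers, ADIPOQ, the hormone adiponectin, had 0.596 to 1.92 CPM in BEFs, 4.43 to 5.07 CPM in CiADCs-3d and 3.67 to 4.4 CPM in CiADCs-6d, while FABP4, a fatty acid carrier of fat cells, had 10.2 to 11.4 CPM, 2.07 to 8.27 CPM and 0.518 to 1.41 CPM in the same order of days. Summed over 21 adipocyte markers, CPM was 588 to 714 in BEFs, 511 to 763 in CiADCs-3d and 431 to 656 in CiADCs-6d, so the sums of the 3 groups overlapped. By the edgeR test and limits given below, 18 of the 21 were tested. Of these, 8 were called higher and 3 lower in CiADCs-6d than in BEFs, against 21.9% and 13.4% of all tested genes. In CiADCs-3d against BEFs, 6 were called higher and 4 lower, against 18.2% and 9.94%. Of the 25 fibroblast and 21 adipocyte markers, 22 and 9 had at least 2 CPM in both BEFs and CiADCs-6d, and 0 were among the dipping genes. These are too few genes to tell 0 from the 0.8% of all genes at that level.

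Several of the dipping genes belong to pathways that fibroblasts use to sense growth factors and tension. TGF-beta ligands bind receptors that phosphorylate SMAD proteins, which enter the nucleus and switch on genes for matrix and for the inhibitory SMADs that damp the signal. YAP and TAZ, the coactivators held back by the Hippo kinases, bind TEAD factors in spread cells on a stiff surface, and many of their targets, CCN2 among them, also respond to TGF-beta. In bulk RNA, fewer cells that express a gene and less RNA of it per cell cannot be told apart.

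Most of the dips were moderate. The CiADCs-3d mean was a median of 0.528 times the smaller of the other means (range 0.131 to 0.6), and it was at most 0.5 times in 34 genes, at most 0.4 times in 11 and at most 0.25 times in 3. Against BEFs, the CiADCs-3d mean was a median of 0.399 times (0.0647 to 0.597), and the CiADCs-6d mean was a median of 1.97 times the CiADCs-3d mean (1.67 to 7.66). The median of the mean CPM over the 88 genes was 16.1 CPM in BEFs, 6.12 CPM in CiADCs-3d and 12.1 CPM in CiADCs-6d, and their summed mean CPM was 8861, 3046 and 7034 in the same order. The genes covered a wide range of levels: mean CPM in BEFs was at least 100 in 16 genes and under 5 in 16, and 17 genes were under 2 CPM on day 3. The lowest count of any of them in a sample was 5, and 84 had at least 10 counts in every sample.

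The extent of the return differed between genes. By day 6, a median of 65.9% of the day 3 fall in mean CPM had been made up. The day 6 mean reached or passed the BEFs mean in 27 genes, between 50 and 100% of the fall was made up in 32, and less than 50% in 29. The extremes were NUSAP1, a protein that binds spindle microtubules, with 5.67%, and CHRD, the BMP antagonist chordin, with 301%.

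**Figure D1:**
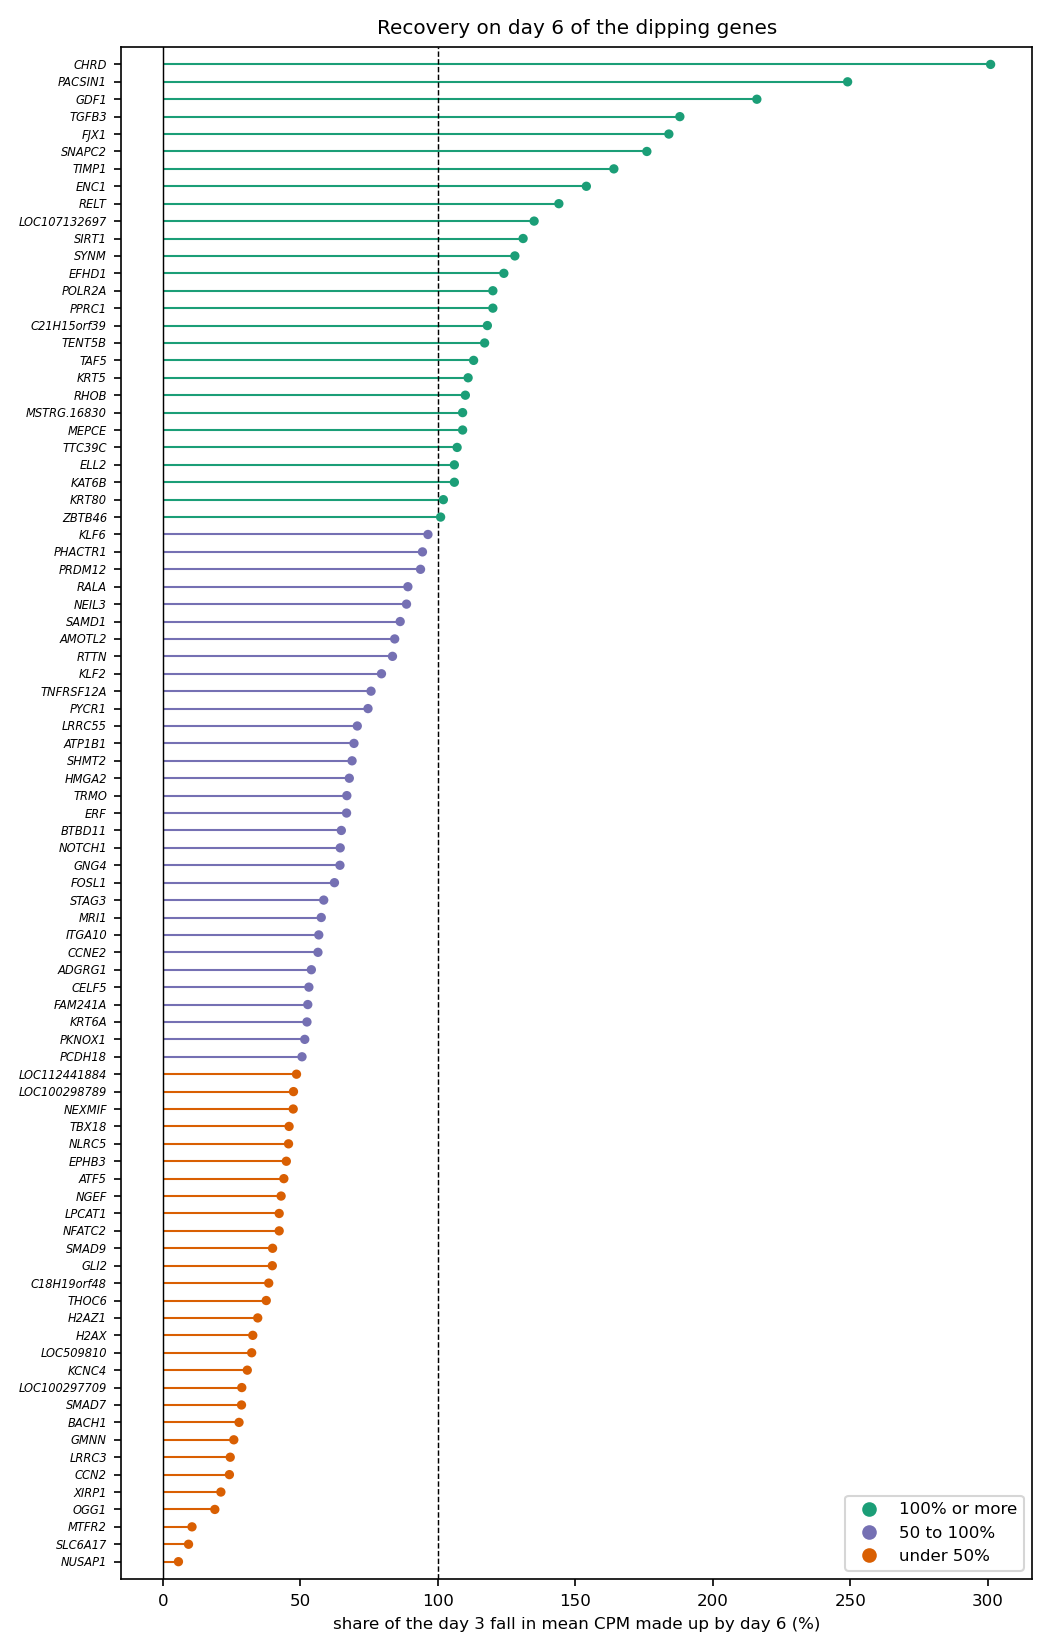
The rows are 87 of the 88 dipping genes, and the horizontal axis gives the share of its fall in mean CPM between BEFs and CiADCs-3d that was made up in CiADCs-6d, in percent. The dashed line marks a day 6 mean equal to the BEFs mean, which 27 genes reached or passed. The values run between 5.67% for NUSAP1 and 301% for CHRD.

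CiADCs-6d against BEFs is a comparison the choice of genes did not set a direction on, although both means had to exceed that of day 3. It was tested with edgeR's quasi-likelihood test over 14020 genes, all 88 among them, with Benjamini-Hochberg adjustment, and a gene was called where the adjusted p was under 0.05 and the log2 fold change at least 1 in size. Of the 88 genes, 0 were called higher in CiADCs-6d, against 21.9% of all tested genes, and 14 (15.9%) were called lower, against 13.4% of all tested genes, so the share lower was near that of the table as a whole. A low day 3 level was a condition of the choice, and 1552 of the 1882 genes low on day 3 were also that low on day 6. The choice itself may thus hold down calls of higher, and the 0 is not read as a result about the 88 genes. The 14 were BACH1, CCN2, GMNN, H2AX, KCNC4, LRRC3, MTFR2, NFATC2, NUSAP1, OGG1, SLC6A17, SMAD7, XIRP1 and LOC100297709, a locus to which the deposited table gives the symbol PNPLA3. The 5 past the adjusted p alone in the other direction were CHRD, PACSIN1, TGFB3, TIMP1 and SNAPC2. Among genes with at least 2 CPM in both groups, 13.7% were called higher and 12% lower. By unadjusted p under 0.05, 5 of the 88 were higher in CiADCs-6d, and DESeq2 and limma on log2(FPKM + 1) also called 0 higher. By adjusted p alone, 5 were higher, 38 were lower and 45 did not pass, against 35.6% of all tested genes higher and 31.9% lower. The median log2 fold change of the 88 genes was -0.37, and that of all tested genes 0.03.

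By samples, every CiADCs-6d sample was above every BEFs sample in 6 genes and below every BEFs sample in 42, and the groups overlapped in 40. Of the 11003 genes with at least 2 CPM in both groups, 3823 were wholly above and 4015 wholly below. An overlap of samples does not place the day 6 mean within the fibroblast range. The choice of genes low on day 3 may also hold down the number wholly above. These counts of the dipping genes are thus given as a description and are not read as a result.

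**Figure D2:**
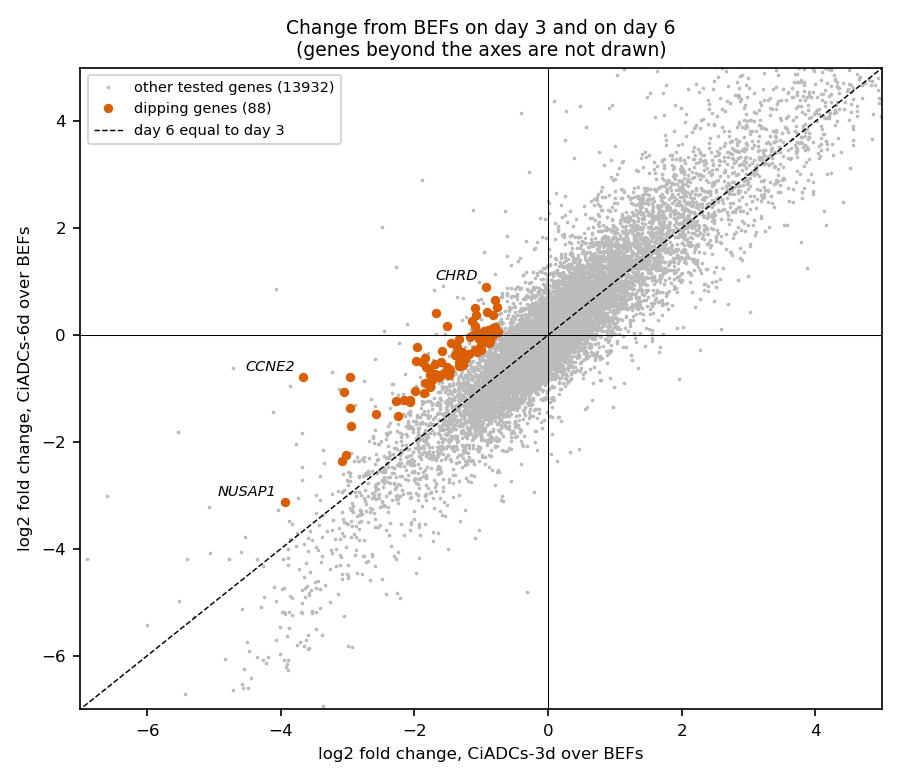
The horizontal axis gives the log2 fold change of CiADCs-3d over BEFs and the vertical axis that of CiADCs-6d over BEFs, with 1 point per tested gene and the dipping genes in orange. All 88 lie left of 0 and above the dashed line of equal change, as their choice requires. On the vertical axis they run between -3.12 (NUSAP1) and 0.91 (CHRD), with a median of -0.37.

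Targets of TGF-beta formed one group among the dipping genes. CCN2, a secreted matrix protein, had 1692, 1734 and 1874 CPM in BEFs, 364, 257 and 283 CPM in CiADCs-3d, and 774, 572 and 622 CPM in CiADCs-6d. The 3 groups did not overlap, and the day 6 samples lay nearer to day 3 than to the fibroblasts. Against BEFs, CCN2 fell on day 6 by 1.47 on the log2 scale (SE 0.14, adjusted p 2.31e-06, edgeR), and it was 1.11 ± 0.14 (SE) higher on that scale in CiADCs-6d than in CiADCs-3d.

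SMAD7, an inhibitory SMAD that is itself induced by TGF-beta, had 30.7, 30.1 and 31.3 CPM in BEFs. It had 9.4, 4.48 and 5.66 CPM in CiADCs-3d and 16, 12.2 and 12.1 CPM in CiADCs-6d. The fibroblast samples were nearly equal, and replicate 1 was the highest sample on both later days. SMAD7 was called lower in CiADCs-6d than in BEFs (log2 fold change -1.23, SE 0.21, adjusted p 0.00021).

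TGFB3, a ligand of the pathway, behaved differently. It had 22, 21.6 and 19.6 CPM in BEFs, 9.56, 10.5 and 10 CPM in CiADCs-3d, and 23.9, 35.2 and 33.3 CPM in CiADCs-6d. All day 6 samples were above all fibroblast samples, replicate 1 only narrowly. Its log2 fold change of CiADCs-6d over BEFs was 0.51 (SE 0.15, adjusted p 0.00773), past the adjusted p and under the size for a call.

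Of the 29 genes on a list of TGF-beta and SMAD targets, 28 were tested. In CiADCs-6d against BEFs, 7 were called higher and 13 lower, with backgrounds of 21.9% and 13.4% of all tested genes. In CiADCs-3d against BEFs, 5 were called higher, with a background of 18.2% of all tested genes, and 10 lower, with a background of 9.94%, CCN2 and SMAD7, low on day 3 by choice, being among the 10. In CiADCs-6d against CiADCs-3d, 6 were called higher (background 4.09%) and 5 lower (background 3.22%). CCN2 and SMAD7, which were selected on this contrast, are among these 6. So are ID2 and ID4, inhibitors of helix-loop-helix factors, and SMAD6, the other inhibitory SMAD, none of which was below the fibroblasts on day 3: SMAD6 averaged 13.5 ± 1.05 CPM in BEFs, 18.3 ± 2.07 CPM in CiADCs-3d and 37.4 ± 13.9 CPM in CiADCs-6d (SD, n = 3 each).

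Targets of the contractile and matrix kind on the list included genes that were lower still on day 6. ACTA2, smooth muscle actin, averaged 3824 ± 390 CPM in BEFs, 542 ± 136 CPM in CiADCs-3d and 274 ± 75.5 CPM in CiADCs-6d (SD, n = 3 each). COL1A1, ITGA11, a collagen-binding integrin, TGFBI, a secreted adhesion protein, and LRRC15, a membrane protein of activated fibroblasts, were, with ACTA2, the 5 called lower on day 6 than on day 3. TAGLN, the actin-binding protein transgelin, averaged 1352 ± 111 CPM in BEFs, 289.7 ± 59.4 CPM in CiADCs-3d and 202 ± 12.1 CPM in CiADCs-6d. SMAD6, which was not selected, thus had a higher mean on day 6 than on day 3, and these 5 genes and TAGLN lower ones. The rise of SMAD7 and CCN2 from day 3 to day 6 was a condition of their choice.

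**Figure D3:**
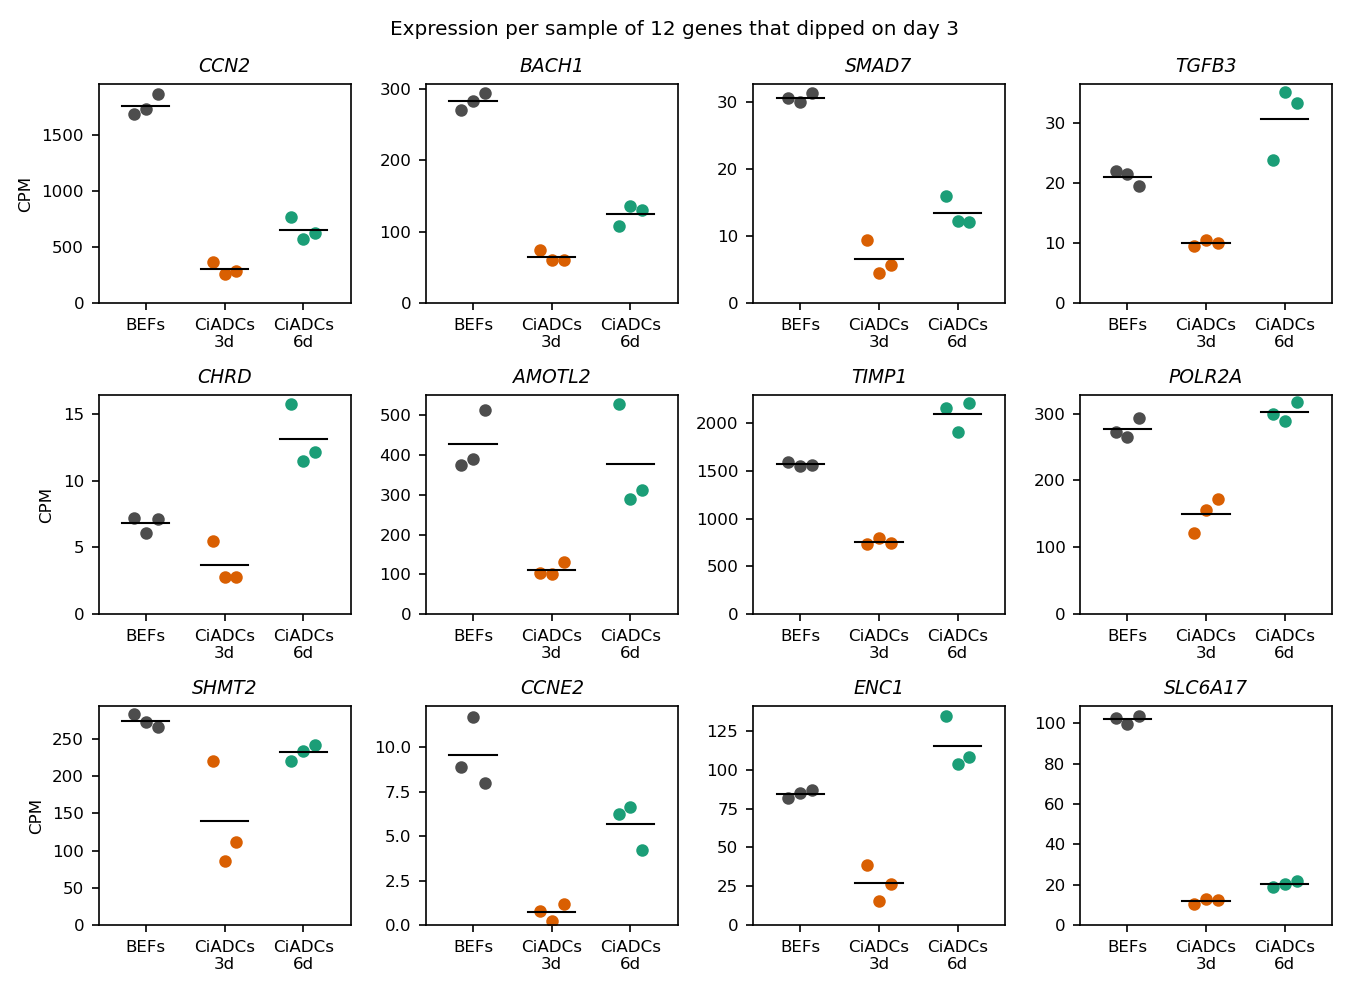
Each panel gives 1 gene, with CPM on a vertical axis that starts at 0, 1 point per sample and 3 samples for each group, and a line at the group mean. The day 3 samples are the lowest in every panel. BACH1, CCN2, CCNE2, SHMT2, SLC6A17 and SMAD7 stayed under the fibroblasts on day 6 in every sample. CHRD, ENC1, TGFB3 and TIMP1 were above them, and AMOTL2 and POLR2A overlapped them.

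Genes of BMP and related ligands were also found among the 88. CHRD, which holds BMP ligands away from their receptors, had 7.2, 6.11 and 7.1 CPM in BEFs, 5.46, 2.74 and 2.75 CPM in CiADCs-3d and 15.7, 11.5 and 12.2 CPM in CiADCs-6d. Its day 6 samples were all above the fibroblasts, and replicate 1 was the highest of both later groups. The log2 fold change of CiADCs-6d over BEFs was 0.91 (SE 0.24, adjusted p 0.00434), the highest of the 88 genes. It passed the size for a call only without CiADCs-6d replicate 2, at 1.01.

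GDF1, a ligand of the TGF-beta superfamily, averaged 2.84 CPM in BEFs, 1.7 CPM in CiADCs-3d and 4.17 CPM in CiADCs-6d, and its log2 fold change of CiADCs-6d over BEFs, 0.52 (SE 0.29), did not pass the test (adjusted p 0.134). In mammals GDF1 can share a transcript with CERS1, a ceramide synthase, so reads of both may have been split: CERS1 had 5.14 to 6.15 CPM in BEFs, 3.17 to 4.57 CPM in CiADCs-3d and 5.51 to 8.01 CPM in CiADCs-6d. SMAD9, a SMAD of BMP receptors, named after its values were seen, averaged 16 CPM in BEFs, 5.24 CPM in CiADCs-3d and 9.52 CPM in CiADCs-6d, a log2 fold change over BEFs of -0.78 (SE 0.2, adjusted p 0.00389) that reached -1.02 without CiADCs-6d replicate 2. Of 26 tested genes on a list for BMP and activin signalling, 8 were called higher and 1 lower in CiADCs-6d than in BEFs (background 21.9% and 13.4%).

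Of the dipping targets of YAP and TEAD, AMOTL2, an angiomotin relative that binds YAP, had the lowest ratio of day 3 to the smaller other mean. AMOTL2 had 377, 390 and 514 CPM in BEFs, 102, 99.7 and 132 CPM in CiADCs-3d, and 529, 291 and 313 CPM in CiADCs-6d. Day 6 overlapped the fibroblasts since replicate 1 was above them and the other replicates were below them, and the test was not passed (log2 fold change -0.22, SE 0.21, adjusted p 0.386). FJX1, the relative of the Drosophila kinase four-jointed, had 8.53, 10.6 and 12 CPM in BEFs, 4.92, 5.68 and 6 CPM in CiADCs-3d, and 20.4, 11.5 and 11.6 CPM in CiADCs-6d. Here too CiADCs-6d replicate 1 stood apart from the other replicates. FJX1 did not pass the test between CiADCs-6d and BEFs (log2 fold change 0.44, SE 0.22, adjusted p 0.0987).

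On the list of YAP and TEAD targets, 22 of 23 genes were tested. In CiADCs-6d, 5 were called higher than in BEFs (background 21.9%) and 4 lower (13.4%). In CiADCs-3d, 4 were called higher than in BEFs (18.2%) and 6 lower (9.94%), with AMOTL2 and CCN2, low on day 3 by choice, among the 6. In CiADCs-6d against CiADCs-3d, 6 were called higher (4.09%) and 1 lower (3.22%), and AMOTL2, CCN2 and FJX1, chosen by this contrast, are 3 of the 6. The others were CCN1, a matrix protein and the closest relative of CCN2, GADD45A, a stress protein, and ANKRD1, an ankyrin repeat protein of muscle and tension-bearing cells. ANKRD1 averaged 1.75 ± 0.18 CPM in BEFs, 0.327 ± 0.2 CPM in CiADCs-3d and 1.91 ± 0.128 CPM in CiADCs-6d (SD, n = 3 each). It had the same shape as the 88 genes and missed the level asked for. CCN1 did not dip: it averaged 590 ± 76.4 CPM in BEFs, 637 ± 126 CPM in CiADCs-3d and 1386 ± 89.1 CPM in CiADCs-6d.

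**Figure D4:**
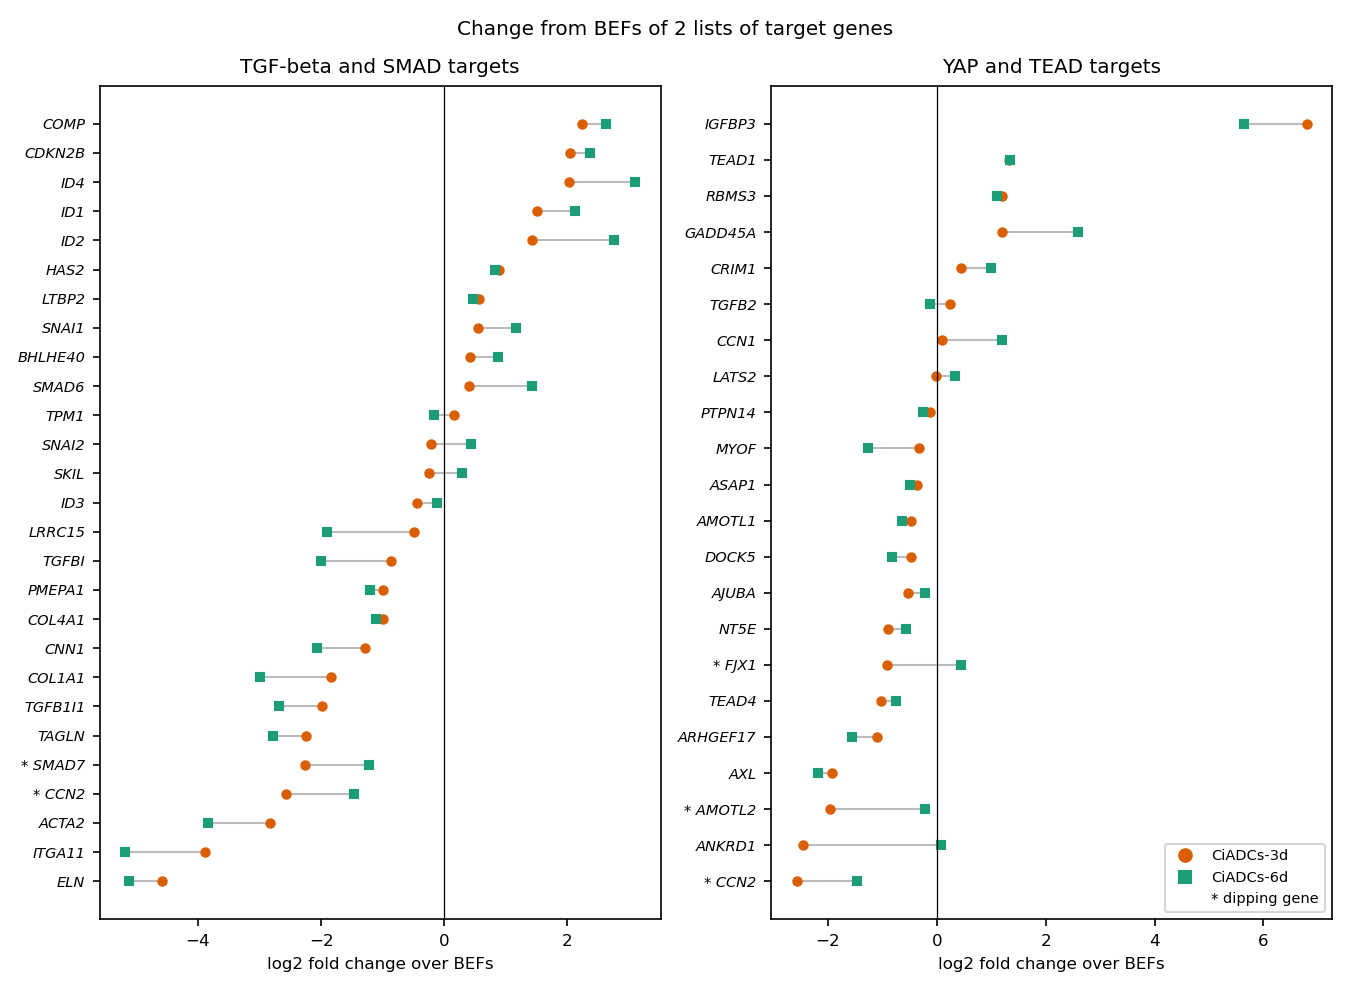
The rows are tested genes on the list of TGF-beta and SMAD targets (left) or of YAP and TEAD targets (right), and the horizontal axis gives the log2 fold change over BEFs, with a circle for CiADCs-3d and a square for CiADCs-6d. Stars mark the dipping genes, whose squares lie right of their circles as their choice requires. ITGA11 and ACTA2, near the bottom left, were lower still on day 6.

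TIMP1, a secreted inhibitor of matrix metalloproteinases, had 1596, 1554 and 1563 CPM in BEFs, 733, 794 and 739 CPM in CiADCs-3d, and 2158, 1906 and 2214 CPM in CiADCs-6d. The samples of each group were close together, and day 6 was above the fibroblasts in every sample. Its log2 fold change of CiADCs-6d over BEFs was 0.38 (SE 0.1, adjusted p 0.00506), under the size for a call. TIMP1 was the only dipping gene of 28 matrix proteases and inhibitors with at least 2 CPM in both groups, and 0 of the 24 collagen genes at that level dipped. Both lists are too short to tell these counts from the 0.8% of all genes at that level. ITGA10, a collagen-binding integrin, averaged 41.1 CPM in BEFs, 12.9 CPM in CiADCs-3d and 28.9 CPM in CiADCs-6d, and was lower in CiADCs-6d than in BEFs by adjusted p alone (log2 fold change -0.54, SE 0.18, adjusted p 0.019).

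Amino acid synthesis was represented by a few genes on which the day 3 samples were far apart. SHMT2, the mitochondrial enzyme that takes a carbon unit from serine, had 284, 272 and 266 CPM in BEFs, 220.2, 85.3 and 112 CPM in CiADCs-3d, and 220.3, 233 and 242 CPM in CiADCs-6d. Replicate 1 of day 3 was almost level with the lowest day 6 sample. PYCR1, which makes proline, had 288, 268 and 264 CPM in BEFs, 187, 110 and 114 CPM in CiADCs-3d, and 237, 219 and 261 CPM in CiADCs-6d. ATF5, a transcription factor of the stress response, had 193, 188 and 165 CPM in BEFs, 70.5, 46.7 and 54.7 CPM in CiADCs-3d, and 104, 111 and 121 CPM in CiADCs-6d. For ATF5 the 3 groups were well apart, and it was lower in CiADCs-6d than in BEFs by adjusted p alone (log2 fold change -0.73, SE 0.14, adjusted p 0.000429), whereas SHMT2 (-0.28, SE 0.25, adjusted p 0.339) and PYCR1 (-0.23, SE 0.17, adjusted p 0.246) did not pass.

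Of 34 tested genes on a list for the amino acid response of ATF4, the factor that cells use when amino acids run short, 9 were called higher and 0 lower in CiADCs-6d than in BEFs (edgeR, background 21.9% and 13.4%). In CiADCs-3d against BEFs, 5 were called higher and 6 lower (18.2% and 9.94%), with SHMT2 and ATF5, low on day 3 by choice, among the 6. The median log2 fold change of the list was -0.33 on day 3 and 0.39 on day 6. PHGDH, the first enzyme of serine synthesis, averaged 564 ± 17.2 CPM in BEFs, 250 ± 152 CPM in CiADCs-3d and 472 ± 50.5 CPM in CiADCs-6d (SD, n = 3 each). Its day 3 SD shows the same wide spread, and it was not among the dipping genes.

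Some of the 88 were cell cycle genes, with returns between 5.67% of the fall for NUSAP1 and 56.4% for CCNE2. CCNE2, cyclin E2, which drives entry into S phase, had 8.89, 11.7 and 8.02 CPM in BEFs, 0.81, 0.241 and 1.18 CPM in CiADCs-3d, and 6.23, 6.64 and 4.24 CPM in CiADCs-6d. It had the deepest dip of the 88 genes, with a CiADCs-3d mean of 0.131 times the CiADCs-6d mean. Its day 6 samples were all below the fibroblasts, with a log2 fold change of -0.78 (SE 0.3, adjusted p 0.0341). NUSAP1 had 55.8, 62 and 44.7 CPM in BEFs, 2.48, 2.79 and 5.24 CPM in CiADCs-3d, and 5.72, 7.73 and 5.69 CPM in CiADCs-6d. Both later days were far below the fibroblasts, and the lowest day 6 sample was close to the highest day 3 sample. Its log2 fold change of CiADCs-6d over BEFs was -3.12 (SE 0.24, adjusted p 2.39e-07), the lowest of the 88.

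MTFR2, a regulator of mitochondrial fission, averaged 17.3 CPM in BEFs, 2.12 CPM in CiADCs-3d and 3.72 CPM in CiADCs-6d, and was called lower in CiADCs-6d than in BEFs (log2 fold change -2.25, SE 0.22, adjusted p 1.98e-06). GMNN, geminin, which keeps DNA from being copied again, was named after its values were seen. It averaged 12.9 CPM in BEFs, 3.15 CPM in CiADCs-3d and 5.67 CPM in CiADCs-6d and was also called lower (-1.22, SE 0.2, adjusted p 0.000154). The lists of cell cycle genes were mostly low on both later days. Of 43 tested S phase genes, 37 were called lower and 0 higher in CiADCs-6d than in BEFs (background 13.4% and 21.9%), and 9 were called lower and 2 higher in CiADCs-6d than in CiADCs-3d (3.22% and 4.09%). Of 30 tested G2/M genes, 29 were called lower in CiADCs-6d than in BEFs and 21 lower in CiADCs-6d than in CiADCs-3d, with 0 higher (edgeR, the same backgrounds). CCNE2 was the 1 dipping gene of 29 S phase genes with at least 2 CPM in both groups, and NUSAP1 the 1 of 15 G2/M genes. These counts are too small to tell from the 0.8% of all genes at that level.

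H2AX and H2AZ1 are variants of histone H2A, the first phosphorylated at DNA breaks and the second placed near gene starts. H2AX had 72.2, 76.4 and 67.3 CPM in BEFs, 17.3, 16.3 and 21.3 CPM in CiADCs-3d, and 40.2, 32 and 35.4 CPM in CiADCs-6d. H2AZ1 had 129, 123 and 120 CPM in BEFs, 47.1, 27.5 and 35.8 CPM in CiADCs-3d, and 76.2, 61.8 and 62.3 CPM in CiADCs-6d. In both genes the 3 groups were separate and day 6 lay in between. H2AX was called lower in CiADCs-6d than in BEFs (log2 fold change -1.04, SE 0.13, adjusted p 1.35e-05), and without CiADCs-6d replicate 2 its log2 fold change of -0.96 missed the size for a call, as did -0.98 with limma on log2(FPKM + 1). H2AZ1 missed it (-0.93, SE 0.16, adjusted p 0.000218) and passed it without CiADCs-6d replicate 1, at -1.05. H2AZ1 has near-identical copies in mammalian genomes, so its counts are uncertain. Of 16 tested genes on the histone list, 3 were called higher and 6 lower in CiADCs-6d than in BEFs (background 21.9% and 13.4%). In CiADCs-3d against BEFs, 0 were called higher and 9 lower (18.2% and 9.94%), with H2AX and H2AZ1, low on day 3 by choice, among the 9. In CiADCs-6d against CiADCs-3d, 4 were called higher and 0 lower (4.09% and 3.22%).

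Genes of DNA repair included OGG1, which cuts oxidised guanine out of DNA. OGG1 had 19.6, 19.7 and 17.6 CPM in BEFs, 3.78, 3.95 and 4.35 CPM in CiADCs-3d and 5.44, 6.41 and 8.69 CPM in CiADCs-6d. Day 6 was well under the fibroblasts in each sample, and OGG1 was called lower (log2 fold change -1.51, SE 0.18, adjusted p 1.09e-05). NEIL3, another glycosylase for damaged bases, named after its values were seen, averaged 7.96 CPM in BEFs, 2.94 CPM in CiADCs-3d and 7.39 CPM in CiADCs-6d and did not pass the test (-0.15, SE 0.21, adjusted p 0.552).

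**Figure D5:**
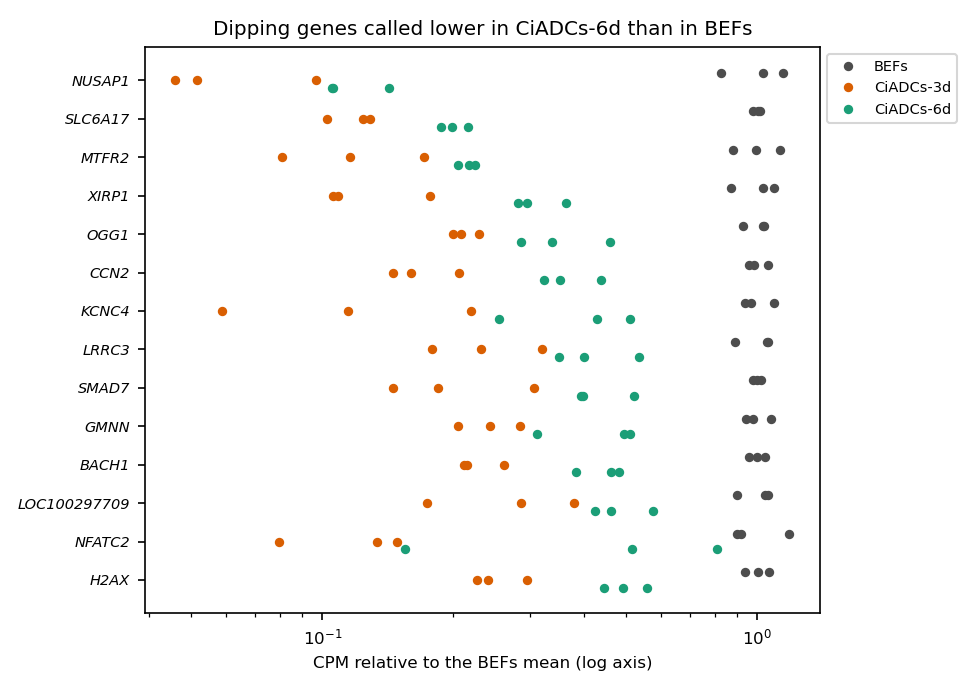
Each row is 1 of the 14 dipping genes called lower in CiADCs-6d than in BEFs, and the horizontal log axis gives the CPM of each sample relative to the BEFs mean of that gene, with 3 points per group. Day 6 lies between day 3 and the fibroblasts in each row. NUSAP1, SLC6A17 and MTFR2 are the furthest from the fibroblasts on day 6, and the day 6 samples of NFATC2 are the most spread.

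POLR2A, the largest subunit of RNA polymerase II, had 273, 265 and 293 CPM in BEFs, 121, 156 and 172 CPM in CiADCs-3d, and 300, 289 and 317 CPM in CiADCs-6d. The fibroblast and day 6 samples overlapped, and the log2 fold change of CiADCs-6d over BEFs was 0.09 (SE 0.13, adjusted p 0.562). The following genes of transcription were picked after their values were seen, and how many genes of that kind did not dip was not counted. MEPCE, which caps the 7SK RNA that holds the elongation factor P-TEFb, averaged 48.6 CPM in BEFs, 24.5 CPM in CiADCs-3d and 50.8 CPM in CiADCs-6d. ELL2, an elongation factor, averaged 24.5, 11.4 and 25.3 CPM in that order of days, and TAF5, a subunit of TFIID, 10.2, 4.95 and 10.9 CPM. SNAPC2, a subunit of the complex that starts small nuclear RNA genes, averaged 10.6, 6.1 and 14.1 CPM and was higher in CiADCs-6d than in BEFs by adjusted p alone (log2 fold change 0.37, SE 0.14, adjusted p 0.0319).

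Among enzymes and coactivators of chromatin, also named after their values were seen, SIRT1, an NAD-dependent deacetylase, averaged 16.3 CPM in BEFs, 7.75 CPM in CiADCs-3d and 19 CPM in CiADCs-6d. KAT6B, a histone acetyltransferase, averaged 29.8, 17.2 and 30.6 CPM, and PPRC1, a coactivator of the PGC-1 family, 69.5, 38.2 and 75.8 CPM in the same order. None of MEPCE, ELL2, TAF5, SIRT1, KAT6B and PPRC1 passed the test between CiADCs-6d and BEFs, with log2 fold changes of at most 0.18 in size.

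FOSL1, the AP-1 subunit FRA-1, was the one dipping gene among 26 immediate early genes with at least 2 CPM in both groups, beside 0.8% of all genes at that level. FOSL1 had 48.9, 46.2 and 60 CPM in BEFs, 17.9, 11.3 and 13.2 CPM in CiADCs-3d, and 49.5, 33.2 and 30 CPM in CiADCs-6d. Replicate 1 of CiADCs-6d was within the fibroblast range and the other replicates were under it (log2 fold change -0.50, SE 0.2, adjusted p 0.039). Against BEFs the list moved the other way: of 27 tested immediate early genes, 21 were called higher and 0 lower in CiADCs-6d (background 21.9% and 13.4%). In CiADCs-3d against BEFs, 16 were called higher and 1 lower (18.2% and 9.94%). The 1 was FOSL1, whose low day 3 level was a condition of its choice. In CiADCs-6d against CiADCs-3d, 8 were called higher and 0 lower (4.09% and 3.22%), with FOSL1, chosen by this contrast, among the 8. FOS averaged 82.4 ± 20.7 CPM in BEFs, 309 ± 31.9 CPM in CiADCs-3d and 219 ± 29.1 CPM in CiADCs-6d (SD, n = 3 each).

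BACH1, a repressor that senses haem, had 271, 283 and 294 CPM in BEFs, 73.8, 59.8 and 60.7 CPM in CiADCs-3d and 109, 136 and 131 CPM in CiADCs-6d. The 3 groups were well separated, and BACH1 was called lower in CiADCs-6d than in BEFs (log2 fold change -1.21, SE 0.11, adjusted p 1.54e-06). NFATC2, a factor activated by calcium and calcineurin, had 4.35, 4.45 and 5.75 CPM in BEFs, 0.648, 0.385 and 0.719 CPM in CiADCs-3d, and 0.75, 2.5 and 3.92 CPM in CiADCs-6d. Its day 6 samples were widely spread, and replicate 1 was barely above day 3. NFATC2 was called lower on day 6 (log2 fold change -1.07, SE 0.42, adjusted p 0.0406), but the adjusted p was between 0.0563 and 0.118 without any 1 of the BEFs samples, CiADCs-6d replicate 1 or CiADCs-6d replicate 2, and the size was missed with limma on log2(FPKM + 1), at -0.34.

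NOTCH1, a receptor that releases a transcription factor subunit when a neighbouring cell binds it, had 114, 112 and 144 CPM in BEFs, 60.6, 54 and 51.4 CPM in CiADCs-3d and 87.2, 92.8 and 118 CPM in CiADCs-6d. Day 6 overlapped the fibroblasts through replicate 3 (log2 fold change -0.35, SE 0.14, adjusted p 0.0436). On a list of Notch receptors, ligands and targets, 11 of 18 tested genes were called higher and 2 lower in CiADCs-6d than in BEFs (background 21.9% and 13.4%). GLI2, a factor of hedgehog signalling, averaged 4.96 CPM in BEFs, 1.79 CPM in CiADCs-3d and 3.05 CPM in CiADCs-6d (-0.74, SE 0.24, adjusted p 0.0155). KLF6 and KLF2, zinc finger factors named after their values were seen, averaged 204 and 29.4 CPM in BEFs, 81.7 and 11.5 CPM in CiADCs-3d, and 199 and 25.7 CPM in CiADCs-6d, and neither passed the test between CiADCs-6d and BEFs.

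The lists of neuronal, skeletal muscle and smooth muscle markers held 0 dipping genes, with 3, 0 and 8 of their genes at 2 CPM or more in both groups. These are too few to tell 0 from the 0.8% of all genes at that level. SLC6A17, a transporter of neutral amino acids into synaptic vesicles, had 103, 99.6 and 104 CPM in BEFs, 10.4, 13.1 and 12.6 CPM in CiADCs-3d and 19.1, 20.3 and 22 CPM in CiADCs-6d. Replicates were close together, and 9.34% of the fall was made up, with a log2 fold change of CiADCs-6d over BEFs of -2.35 (SE 0.12, adjusted p 5.99e-09). KCNC4, a voltage-gated potassium channel whose gene lies beside that of SLC6A17 on chromosome 3, averaged 7.38 CPM in BEFs, 0.966 CPM in CiADCs-3d and 2.94 CPM in CiADCs-6d (-1.37, SE 0.32, adjusted p 0.00248). XIRP1, an actin-binding protein of muscle, averaged 8.16, 1.07 and 2.56 CPM in that order of days and was called lower in CiADCs-6d than in BEFs (-1.71, SE 0.22, adjusted p 2.47e-05). With limma on log2(FPKM + 1), a scale that understates changes of low genes, neither KCNC4 (-0.53) nor XIRP1 (-0.71) reached the size for a call.

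ENC1, an actin-binding protein first found in the nervous system, had 82, 84.8 and 86.7 CPM in BEFs, 38.5, 15.6 and 26.5 CPM in CiADCs-3d and 135, 104 and 109 CPM in CiADCs-6d. Every day 6 sample was above the fibroblasts, but the test was not passed (log2 fold change 0.42, SE 0.22, adjusted p 0.118). PACSIN1, which shapes membranes at synapses, averaged 2.36 CPM in BEFs, 1.39 CPM in CiADCs-3d and 3.81 CPM in CiADCs-6d and was higher in CiADCs-6d than in BEFs by adjusted p alone (0.65, SE 0.24, adjusted p 0.0317). CELF5, an RNA-binding protein, averaged 3.6 CPM in BEFs, 0.469 CPM in CiADCs-3d and 2.13 CPM in CiADCs-6d, with a log2 fold change over BEFs of -0.79 (SE 0.31, adjusted p 0.0402) that reached -1.10 without CiADCs-6d replicate 2. GNG4, a G protein subunit, averaged 4.29, 1.11 and 3.16 CPM in the same order, and EFHD1, a calcium-binding protein of mitochondria, 2.41, 0.855 and 2.79 CPM. CELF5, GNG4 and EFHD1 were 3 of the 8 deepest dips, at counts that leave their standard errors between 0.24 and 0.34 on the log2 scale for CiADCs-6d over BEFs.

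Cell surface receptors were represented by EPHB3, which binds ephrins on neighbouring cells, and PCDH18, a protocadherin. EPHB3 had 56.4, 58.9 and 56.5 CPM in BEFs, 13.5, 19.6 and 18.4 CPM in CiADCs-3d and 42.5, 30.8 and 32.2 CPM in CiADCs-6d. PCDH18 had 124, 122 and 114 CPM in BEFs, 58, 30.3 and 40.4 CPM in CiADCs-3d and 76.9, 85.5 and 83.3 CPM in CiADCs-6d. In both, day 6 lay between the other groups without overlap, and both were lower in CiADCs-6d than in BEFs by adjusted p alone, by log2 fold changes of -0.74 (adjusted p 0.00106) and -0.59 (adjusted p 0.0088). TNFRSF12A, the TWEAK receptor, and RHOB, a small GTPase of the cytoskeleton, named after their values were seen, averaged 81.3 and 147 CPM in BEFs, 27.4 and 84.6 CPM in CiADCs-3d, and 68.2 and 154 CPM in CiADCs-6d.

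Of the 7 keratin genes with at least 2 CPM in both BEFs and CiADCs-6d, 3 dipped. KRT5, a keratin of basal epithelial cells, had 27.3, 23.8 and 42.2 CPM in BEFs, 10.3, 15.3 and 20.3 CPM in CiADCs-3d, and 30.3, 31.8 and 36.5 CPM in CiADCs-6d. Day 6 was within the fibroblast range. KRT6A, which lies beside KRT5 on chromosome 5, averaged 10.9 CPM in BEFs, 3.17 CPM in CiADCs-3d and 7.2 CPM in CiADCs-6d, and KRT80 averaged 8.49, 4.76 and 8.57 CPM, both named after their values were seen. The KRT6 genes are near-identical copies, and the table gives this gene the symbol of KRT6B, so its counts are uncertain.

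The other epithelial markers on the list did not meet the conditions. EPCAM, an adhesion molecule of epithelia, had at most 0.161 CPM in any sample. KRT8 had 8.07 to 13.9 CPM in BEFs, 2.11 to 2.31 CPM in CiADCs-3d and 1.41 to 2.59 CPM in CiADCs-6d, and KRT14, the partner of KRT5, 1.87 to 5.1, 1.03 to 2.21 and 2.36 to 3.27 CPM in that order of days. TP63, the factor of basal epithelial cells, had 1.29 to 2.14 CPM in BEFs, 12 to 14.2 CPM in CiADCs-3d and 9.89 to 13.6 CPM in CiADCs-6d. The summed CPM of the 15 keratinocyte and epithelial markers was 74.6 to 103 in BEFs, 114 to 140 in CiADCs-3d and 117 to 127 in CiADCs-6d. CDH1, the adhesion protein E-cadherin, carried much of that sum, with 26 to 30.3 CPM in BEFs, 71.5 to 92.7 CPM in CiADCs-3d and 56.4 to 59.7 CPM in CiADCs-6d. Without CDH1, a choice made after the data were seen, the other 14 markers summed to 46.2 to 76.6 CPM in BEFs, 38.6 to 47.4 CPM in CiADCs-3d and 59.7 to 67.2 CPM in CiADCs-6d. KRT5, low on day 3 by choice, is among the 14. It gave 23.8 to 42.2 CPM of the sums in BEFs, 10.3 to 20.3 CPM in CiADCs-3d and 30.3 to 36.5 CPM in CiADCs-6d. A lower day 3 sum of these markers thus in part restates the choice. The part of these markers in the keratin values was not tested.

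The other dipping genes, named after their values were seen, fell under no single heading. Among regulators of transcription, TBX18, a T-box factor, averaged 16.3 CPM in BEFs, 4.93 CPM in CiADCs-3d and 10.2 CPM in CiADCs-6d, ERF, a repressor of the ETS family, 37.6, 14.4 and 29.9 CPM, and HMGA2, a chromatin protein of proliferating and embryonic cells, 4.21, 1.19 and 3.23 CPM in the same order of days. TBX18 and ERF were lower in CiADCs-6d than in BEFs by adjusted p alone (log2 fold changes -0.72 and -0.37, adjusted p 0.00177 and 0.0115), and HMGA2 was not past it (adjusted p 0.246). PKNOX1, PRDM12, SAMD1, ZBTB46 and NEXMIF are also nuclear proteins. LPCAT1, an enzyme that remodels phospholipids, had 107, 104 and 115 CPM in BEFs, 35.8, 36.5 and 35.9 CPM in CiADCs-3d and 56.8, 76.6 and 66.5 CPM in CiADCs-6d, with day 6 between the other groups. SYNM, an intermediate filament protein, averaged 95.6 CPM in BEFs, 54.6 CPM in CiADCs-3d and 107 CPM in CiADCs-6d, and its day 6 samples overlapped the fibroblasts. RALA, a small GTPase, averaged 25.1, 13.9 and 23.9 CPM and THOC6, a subunit of the complex for mRNA export, 23.6, 6.67 and 13.1 CPM in that order of days. LRRC3, a leucine-rich repeat protein, averaged 9.13 CPM in BEFs, 2.22 CPM in CiADCs-3d and 3.91 CPM in CiADCs-6d and was called lower in CiADCs-6d than in BEFs (log2 fold change -1.26, SE 0.23, adjusted p 0.000365), a call lost with limma on log2(FPKM + 1), at -0.96. The remaining genes were ADGRG1, ATP1B1, BTBD11, C18H19orf48, C21H15orf39, FAM241A, LRRC55, MRI1, NGEF, NLRC5, PHACTR1, RELT, RTTN, STAG3, TENT5B, TRMO and TTC39C, and 6 loci without a RefSeq gene symbol. To 3 of the 6 the deposited table gives a symbol, PNPLA3 (LOC100297709), PPP2R3B (LOC100298789) and ZNF256 (LOC509810). PNPLA3 is known in humans as a protein of lipid droplets. LOC100297709 had 4.67, 3.98 and 4.62 CPM in BEFs, 1.68, 0.77 and 1.27 CPM in CiADCs-3d and 1.87, 2.54 and 2.04 CPM in CiADCs-6d. It was called lower in CiADCs-6d than in BEFs (log2 fold change -1.08, SE 0.26, adjusted p 0.00292), a call lost with limma on log2(FPKM + 1), at -0.70.

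Across 43 gene lists, 16 held a dipping gene. On at least 1 list were 21 of the 88 genes and 796 of the 11003 genes with at least 2 CPM in both groups. By the KEGG annotation of the table, which covered 39 of the 88 genes, the Hippo pathway held 5 (CCN2, GLI2, SMAD7 and TGFB3 among them), or 12.8% against 2.55% of the annotated genes with at least 2 CPM in both groups. The TGF-beta pathway held 4 (CHRD, SMAD7, SMAD9 and TGFB3), or 10.3% against 1.39%, and cellular senescence 5 (CCNE2, NFATC2, SIRT1 and TGFB3 among them), or 12.8% against 3.14%. Metabolic pathways held 6, or 15.4% against 20.4%. These shares are descriptions of small counts. By RefSeq symbol where there is one, 0 of 241 ZNF, 0 of 147 TMEM and 1 of 184 SLC genes at that level dipped, and so did 5 of 201 loci with a LOC name. Of all genes at that level 0.8% dipped, and counts this small are not read as a result. The median gene span was 20.5 kb for the dipping genes and 25.9 kb for all genes at that level.

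The samples of a group were more spread in the dipping genes than in all genes of at least 2 CPM, by the median. The median coefficient of variation over the 88 genes was 8.62% for BEFs, 18.8% for CiADCs-3d and 16.5% for CiADCs-6d, and 6.15%, 10.7% and 13% over the 11003 genes with at least 2 CPM. On day 3, replicate 1 was at least 1.5 times the mean of the other replicates in 15 of the 88 genes (17%), against 5.63% of the 11003. CHRD, ENC1, KCNC4, PACSIN1, PCDH18, PYCR1, SHMT2 and SMAD7 were among the 15. Replicate 3 was that far above in 8 genes (9.09%, against 1.15% of the 11003), CCNE2, KRT5, MTFR2 and NUSAP1 among them. Replicate 2 was at most the mean of the others divided by 1.5 in 21 (23.9%, against 3.7%). The dipping genes were also lower on day 3, with a median of the mean CPM of 6.12, against 28.3 for the 11003 genes. The part of low counts in the spread was not tested.

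Which genes met the conditions depended on single samples. Without CiADCs-3d replicate 1, 169 genes met them, 78 of the 88 among these, and leaving out any other 1 sample gave between 83 and 111, with between 70 and 86 of the 88 among these. Several genes lay close to the limit of 0.6 for the ratio of the CiADCs-3d mean to the smaller of the other means. Just inside it were GDF1 at 0.597, an uncharacterised locus at 0.599 and SHMT2 at 0.6, and just outside it MAP3K21, a kinase, at 0.6, with 6.76 CPM in BEFs, 4.06 CPM in CiADCs-3d and 6.99 CPM in CiADCs-6d, and a pair of assembled loci.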

How the data were processed

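The authors deposited 1 table with an estimated count (expected count) per gene and sample, not normalized, and FPKM values, which they had scaled to gene length and depth. RSEM, StringTie 1.3.1, HISAT2 2.2.4 and fastp 0.18.0 are listed without roles in the submitters' processing notes, whereas the paper's text gives HTSeq and TopHat, and the genome build is not given in the sources used here. The labels name a Ribo-Zero kit and the paper oligo(dT) selection. The table also holds annotations, of which the symbols and KEGG pathways were used, and 87 of the 88 genes were matched by ID to the RefSeq gene table (ARS-UCD2.0), whose symbols are used where the table's differ.

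CPM was a gene's count over its sample's total times 1000000, and was not corrected for length, so levels of different genes were not compared. The members and the gene lists were chosen with earlier results of these data known. Lists were matched by RefSeq symbol, then by the table's symbol, then by synonym, which found 1338 of 1343 entries. Rounded counts passing filterByExpr (minimum count 10, minimum total 15) were fitted in edgeR 4.0.16 with TMM scaling, all 9 samples and 1 coefficient per group, without a replicate block. Standard errors are the log2 fold change over the square root of F. The genes named are the 8 with the highest CPM in BEFs, the 8 deepest dips, the 6 highest and 6 lowest log2 fold changes of CiADCs-6d over BEFs, up to 4 genes per list and those beside the limit of 0.6. Of the dipping genes, 1 is counted but not reported here by name, and is left out of the plots that name genes. Others are said to have been named after their values were seen. Alternatives were DESeq2 1.42.0, limma 3.58.1 on log2(FPKM + 1) or log2(FPKM + 0.1), other scalings and filters, other limits of the rule, a replicate block and each sample left out. Leaving out replicate 1 of both CiADCs groups was added after the data were seen. The fit was tested on simulated data. R 4.3.3 and Python 3.11.15 with matplotlib 3.10.9 were used. No promoter, protein or genome sequence was used here.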

Additional observations from a re-analysis of the deposited data

How the results depend on the processing

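The number of genes meeting the conditions was 34 with a limit of 0.5 and 214 with a limit of 0.7, and between 83 and 169 with 1 sample left out, the highest without CiADCs-3d replicate 1. Without replicate 1 of both CiADCs groups, a choice made after the data were seen, it was 209. The opposite shape gave 79 and 350 genes at these limits, 160 to 312 with 1 sample left out and 409 without both. From the FPKM values 59 genes met the conditions, 56 of the 88 among them, and with TMM-scaled libraries 88, of which 82 were the same genes. The cause of these shifts was not tested.

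In CiADCs-6d against BEFs, between 8 and 16 of the 88 genes were called lower under the alternatives with the size limit. By adjusted p alone 5 were higher and 38 lower, and 4991 and 4469 of all tested genes. With limma on log2(FPKM + 1), 8 were called lower, with or without a filter, and over all genes 1844 were called higher and 1224 lower, or 1838 and 1222 without a filter. Without 1 sample, between 0 and 1 gene (CHRD, without CiADCs-6d replicate 2) was called higher. Of 1756 log2 fold changes of single genes under alternatives, 1722 stayed on their side of the limits for a call. A call was lost by 22, in 6 genes (H2AX, KCNC4, LRRC3, NFATC2, XIRP1 and LOC100297709, each of them with limma on log2(FPKM + 1)). A call was gained by 12, in 6 genes. Among values called in the main fit or the alternative, 0 changed direction, and direction was not compared for the rest. THOC6 was called lower, at -1.18, without CiADCs-6d replicate 1. With the replicate numbers as a block, the 88 genes had 0 called higher and 14 lower. The labels link samples of different groups by a replicate number alone, and the sources used here leave unsaid if same-numbered samples share an origin. Deviations of same-numbered samples correlated at between -0.42 and 0.22, which does not settle this.

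For CiADCs-6d against CiADCs-3d, TGF-beta targets called higher were 3 with limma on log2(FPKM + 1), with or without a filter, and 3 to 6 with 1 sample left out. Those called lower were 1 with limma, with or without a filter, and 8 by adjusted p alone. YAP targets called higher were 3 with limma without a filter and 10 by adjusted p alone, and those called lower 2 with upper-quartile scaling, 1 to 2 with 1 sample left out, 2 without replicate 1 of both groups and 3 by adjusted p alone. By adjusted p alone 11 YAP targets were lower in CiADCs-6d than in BEFs and 13 lower in CiADCs-3d than in BEFs. Depth limits genes such as CELF5 and NFATC2, whose CiADCs-3d means were under 1 CPM.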
